A study of Mus musculus with 12 samples.

Results

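The genes described are 6 transcription factors of the endoderm, Gata4, Gata6, Sox7, Sox17, Foxa2 and Hnf4a, taken as the probe set whose single gene symbol is the factor's own. All 6 were on the table, each with 1 probe set, among 19938 genes that could be named in this way. All 6 also passed the filter on dim genes, which left 12988 genes to test: Gata4, Gata6, Sox17 and Foxa2 lay above it on 12 of 12 arrays, Sox7 on 11 and Hnf4a on 10. The study knocked down Smarcd1, which encodes the BAF60a subunit of SWI/SNF chromatin remodelling complexes, in R1 mouse embryonic stem cells (ESCs). These cells were kept on mitomycin-treated embryonic fibroblasts, and RNA was measured on 12 Affymetrix mouse gene arrays. Retinoic acid KD1 cells (4 arrays) and retinoic acid scrambled cells (2 arrays) had been differentiated for 4 days in 1 µM retinoic acid with leukemia inhibitory factor (LIF) withdrawn. KD2 ESCs, KD1 ESCs and scrambled ESCs (2 arrays each) were undifferentiated and held in medium with LIF. All cells of all groups were of the R1 line and had been infected, the scrambled ones with a control. KD1 and KD2 are 2 labelled knockdowns of Smarcd1 that the labels describe no further, and the protocol calls the cells clones, so other differences between the clones cannot be told apart from the knockdown. Differentiated KD2 cells were not analysed here.

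Endoderm factors act in a cascade that is best known from the mouse blastocyst. There GATA6 marks the cells that leave the epiblast fate and become primitive endoderm, and SOX17, GATA4 and SOX7 follow it. Primitive endoderm gives rise to parietal endoderm, which lays down a thick basement membrane of laminin and type IV collagen, and to visceral endoderm, which takes up and secretes nutrient carriers and depends on HNF4A. FOXA2, which opens chromatin at endoderm genes, and SOX17 also serve in the definitive endoderm of the gastrula. Forced expression of GATA4 or GATA6 turns mouse ESCs into extraembryonic endoderm, and retinoic acid is a classical inducer of endoderm in embryonal carcinoma cells.

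Values are the deposited log2 expression values. They compare arrays for 1 gene and do not rank genes against each other. Changes are given as the log2 difference ± its standard error (SE) from limma, with a p adjusted by the Benjamini-Hochberg method over the 12988 tested genes. A change was called at an adjusted p under 0.05. The labels name biological replicates and say nothing of how their cultures were separated. The p-values therefore reflect only how far these arrays scatter, and that scatter may be technical. Some arrays stood apart. Smarcd1 read 6.36 to 6.61 on the retinoic acid KD1 arrays, against 8.84 and 8.64 on the retinoic acid scrambled arrays. Among ESCs, KD2 gave 8.56 and 7.16 and KD1 gave 7.75 and 7.78, against 8.67 and 8.68 for scrambled. The Smarcd1 reading of the array labelled KD2 replicate 1 therefore contradicts its label, and the reason was not tested. The KD2 arrays were the least alike of any group, with a Pearson correlation across tested genes of 0.918, where pairs within the other groups gave 0.984 to 0.994. Among the retinoic acid KD1 arrays, replicates 1 and 2 (0.992) and replicates 3 and 4 (0.994) resembled each other more than arrays across these pairs did (0.985 to 0.987).

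All 6 endoderm factors were higher in retinoic acid KD1 cells than in retinoic acid scrambled cells. Gata4 and Sox7 differed by about 20-fold, Sox17, Foxa2 and Gata6 by 3.77- to 9.8-fold. Hnf4a differed least, and its scrambled arrays lay at the level of the filter on dim genes, so no fold is given for it. The Sox7 scrambled arrays (5.02 and 5.08) lay not far above that level (4.46 to 4.63), so its fold is a rough figure. Of all tested genes, 11.2% were called higher in this comparison and 11.5% lower. The 6 factors were chosen with earlier results of these data known, so their count is a description. The median log2 change was 3.11 over the factors and -0.02 over all tested genes. The arrays of the groups did not overlap for any of the 6, which was the case, with KD1 above, for 26.5% of all tested genes. In RNA from whole cultures, more cells that express a factor and more of its RNA per cell cannot be told apart.

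**Figure D1:**
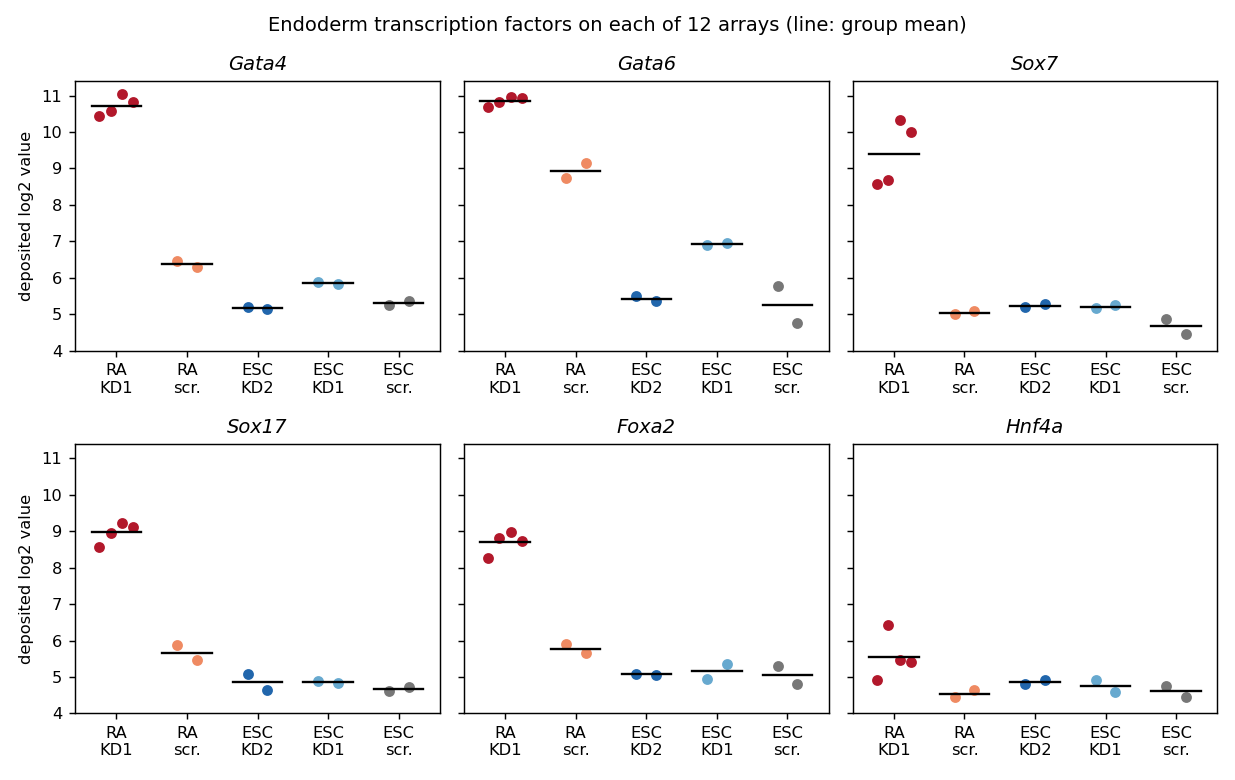
Deposited log2 values (vertical axes) of the 6 endoderm factors on each of 12 arrays in 5 groups (horizontal axes), 1 point per array, with a line at the group mean. The 4 retinoic acid (RA) KD1 arrays lie above both retinoic acid scrambled (scr.) arrays in all 6 panels, by 4.34 log2 units for Gata4 means and 1.01 for Hnf4a means.

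The zinc-finger factors of the GATA family act early in the cascade. Gata6 read 10.70, 10.83, 10.95 and 10.94 on the retinoic acid KD1 arrays, against 8.73 and 9.15 on the retinoic acid scrambled arrays. The 4 KD1 arrays sat close together, and both scrambled arrays lay clearly below them. The change was 1.91 ± 0.23 (SE, limma adjusted p = 0.000127). For Gata4, readings were 10.45, 10.57, 11.05 and 10.82 in retinoic acid KD1 cells, against 6.47 and 6.30 in retinoic acid scrambled cells. Every KD1 array was high, and both scrambled arrays lay far below them but above all ESC arrays, which read at most 5.88. The Gata4 change of 4.34 ± 0.17 (SE, adjusted p = 4.92e-08, 20.2-fold) ranked 4 among all tested genes by size of increase and 3 by p.

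SOX7 and SOX17 are closely related HMG-box factors of the SoxF group. Sox17 read 8.56, 8.95, 9.23 and 9.12 on the retinoic acid KD1 arrays, against 5.88 and 5.46 on the retinoic acid scrambled arrays. The change was 3.30 ± 0.21 (SE, adjusted p = 8.39e-07). Sox7 stood at 8.58, 8.69, 10.32 and 10.01 in retinoic acid KD1 cells, against 5.02 and 5.08 in retinoic acid scrambled cells. KD1 replicates 3 and 4 were the high pair and replicates 1 and 2 the lower pair, and both pairs were far above the scrambled arrays, which lay below the KD1 and KD2 ESC arrays and above the scrambled ESC arrays. The Sox7 change was 4.35 ± 0.42 (SE, adjusted p = 2.2e-05), which ranked 2 by size of increase and had the widest error of the 6. It was 3.59 (adjusted p = 1.25e-05) with KD1 replicates 1 and 2 only and 5.12 (adjusted p = 4.15e-06) with replicates 3 and 4 only.

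Gata4 and Sox7 are neighbours on chromosome 14, where the retinoic acid KD1 arrays also differed as a whole. The median of tested chromosome 14 genes, taken as a KD1 array minus the mean of the retinoic acid scrambled arrays, was 0.04, 0.02, 0.32 and 0.34 on KD1 replicates 1 to 4. Over all tested genes these medians lay between -0.04 and -0.01. Replicates 3 and 4, which carried the shift, had the higher readings of Sox7 and Gata4, and also of Gata6 and Sox17, which lie on other chromosomes. The remaining factors did not follow this order. For Foxa2 replicate 2 (8.82) lay above replicate 4 (8.74), and for Hnf4a replicate 2 (6.43) was the highest. With replicates 1 and 2 only, the Gata4 change was 4.12 (adjusted p = 7.31e-06). The part of the chromosome 14 shift in the changes of Gata4 and Sox7 was not tested. Between Gata4 and Sox7 lie 5 tested genes, Fam167a, Mir598, Mtmr9, Pinx1 and Xkr6, whose changes ran from -0.40 to 0.72 with a median of 0.16. Of these 2 were called higher and 0 lower, where 11.2% of all tested genes were higher and 11.5% lower. KD2 ESCs also had a higher chromosome 14 median, at 0.27 against scrambled ESCs and 0.32 against KD1 ESCs. All tested genes gave -0.02 and -0.01 there. For KD1 against scrambled ESCs the chromosome 14 median was 0.003. The part of the chromosome 14 shift in the Gata4 and Sox7 changes of KD2 ESCs was not tested.

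FOXA2 is a forkhead factor and HNF4A a nuclear receptor that drives liver-type secretory genes. Both genes lie on chromosome 2. Promoter windows were examined for these genes only, and Gata4, Gata6, Sox7 and Sox17 were left out. The windows therefore do not describe the factors as a set. The windows came from RefSeq (build GRCm38.p6, 250 bases before to 50 bases after an annotated start). The windows are shown as a description, and whether any factor acts on them was not tested. Letters were searched on both strands for the GATA motif AGATAA, the FOXA motif TGTTTAC, the SOX motif ACAATG and the HNF1 motif GTTAAT, a set chosen with the sequences in view, and no matches overlapped. Capitals mark the matches, read 5′ to 3′ on the strand of the gene.
Foxa2 chr2:148045415-148045714, minus strand: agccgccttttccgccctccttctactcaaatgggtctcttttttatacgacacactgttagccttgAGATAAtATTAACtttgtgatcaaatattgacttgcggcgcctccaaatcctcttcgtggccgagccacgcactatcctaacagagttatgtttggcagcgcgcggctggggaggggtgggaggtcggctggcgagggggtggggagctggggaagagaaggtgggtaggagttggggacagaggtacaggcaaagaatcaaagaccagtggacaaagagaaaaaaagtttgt
Hnf4a chr2:163506607-163506906, plus strand: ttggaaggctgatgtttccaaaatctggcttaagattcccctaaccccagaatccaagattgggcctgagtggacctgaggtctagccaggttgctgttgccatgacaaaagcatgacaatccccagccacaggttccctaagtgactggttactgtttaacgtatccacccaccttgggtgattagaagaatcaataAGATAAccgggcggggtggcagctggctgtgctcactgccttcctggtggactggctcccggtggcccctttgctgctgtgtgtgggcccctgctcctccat
Hnf4a chr2:163546905-163547204, plus strand: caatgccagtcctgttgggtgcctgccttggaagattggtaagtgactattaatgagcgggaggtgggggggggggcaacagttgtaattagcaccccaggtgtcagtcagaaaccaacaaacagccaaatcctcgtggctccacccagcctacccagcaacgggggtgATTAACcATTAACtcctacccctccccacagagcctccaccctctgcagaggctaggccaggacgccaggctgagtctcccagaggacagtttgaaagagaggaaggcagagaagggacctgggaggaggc
The Foxa2 window holds AGATAA at -183 and at -176 it holds ATTAAC, which reads GTTAAT on the opposite strand, counted from the start site. In the first Hnf4a window AGATAA stands at -52, and in the second ATTAAC stands at -81 and -74. The other 2 Foxa2 windows held none of the 4 motifs. Of 32851 promoter windows of 300 bases, 11.2% held AGATAA, 3.65% TGTTTAC, 12.6% ACAATG and 7.10% GTTAAT, so such matches are common and describe letters only.

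Foxa2 read 8.27, 8.82, 8.98 and 8.74 on the retinoic acid KD1 arrays, against 5.91 and 5.65 on the retinoic acid scrambled arrays. The groups were separated by more than 2 log2 units, with a change of 2.92 ± 0.21 (SE, adjusted p = 2.91e-06, 7.57-fold). Hnf4a was the dim member of the set. Its values were 4.91, 6.43, 5.46 and 5.40 in retinoic acid KD1 cells, against 4.45 and 4.64 in retinoic acid scrambled cells, where the filter on dim genes stood between 4.46 and 4.63 on the arrays. Only KD1 replicate 2 was well clear of the rest, and KD1 replicate 1 lay close to the scrambled arrays. The Hnf4a change of 1.01 ± 0.31 (SE) passed at an adjusted p of 0.0385. It did not pass in 11 of 23 alternative analyses, with adjusted p up to 0.232. Among them are the analyses without retinoic acid scrambled replicate 1 or 2, without retinoic acid KD1 replicate 3 or 4, without any 1 of the KD1 or scrambled ESC arrays, with retinoic acid KD1 replicates 1 and 2 only, and with no filter.

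**Figure D2:**
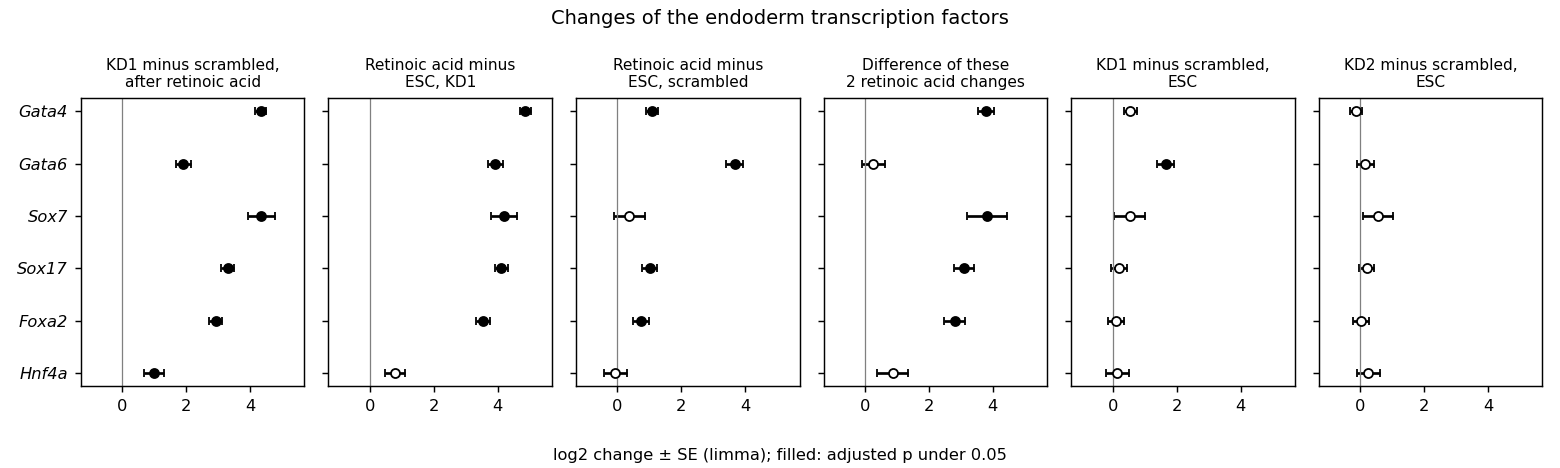
Log2 change ± SE from limma (horizontal axes) of each endoderm factor (rows) in 6 comparisons (panels), with filled points where the adjusted p is under 0.05. Retinoic acid raised Gata6 by 3.92 in KD1 cells and by 3.67 in scrambled cells, while Gata4, Sox7, Sox17 and Foxa2 changed by 3.55 to 4.86 in KD1 cells and by 0.37 to 1.08 in scrambled cells.

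How each factor responded to retinoic acid was asked in each line. In KD1 cells 5 of 6 factors rose with retinoic acid, and 29.4% of all tested genes did so. Gata4 rose by 4.86 ± 0.17 (SE, adjusted p = 8.8e-09, 29.0-fold over 5.88 and 5.84 in KD1 ESCs). Sox7 rose by 4.19 ± 0.42 over 5.16 and 5.25, Sox17 by 4.11 ± 0.21 over 4.89 and 4.82, Gata6 by 3.92 ± 0.23 over 6.91 and 6.95, and Foxa2 by 3.55 ± 0.21 over 4.95 and 5.35. Their adjusted p lay between 7.37e-08 and 8.75e-06. Hnf4a stood at 4.92 and 4.60 in KD1 ESCs and overlapped with retinoic acid KD1 cells, with a change of 0.79 ± 0.31 (SE, adjusted p = 0.0534) that did not pass.

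In scrambled cells the same treatment raised 4 of 6 factors, and 22.4% of all tested genes. Gata6 stood out. It read 8.73 and 9.15 on the retinoic acid scrambled arrays, against 5.77 and 4.76 on the scrambled ESC arrays, a change of 3.67 ± 0.27 (SE, adjusted p = 2.32e-06). Gata4 rose by 1.08 ± 0.19 over 5.25 and 5.36 (adjusted p = 0.00103), Sox17 by 1.01 ± 0.24 over 4.61 and 4.71 (adjusted p = 0.00569) and Foxa2 by 0.74 ± 0.25 over 5.29 and 4.80 (adjusted p = 0.0346). The Foxa2 call was lost without scrambled ESC replicate 2 (0.49, adjusted p = 0.247) and without either retinoic acid scrambled array (adjusted p = 0.184 and 0.0684), and after cyclic loess scaling (0.56, adjusted p = 0.115) or median centring. The Sox17 call was lost without retinoic acid scrambled replicate 1 (0.80, adjusted p = 0.063). Sox7 changed by 0.37 ± 0.48 (adjusted p = 0.583) over 4.88 and 4.47, and Hnf4a by -0.07 ± 0.36 (adjusted p = 0.905) over 4.76 and 4.46, and neither passed.

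The difference between these responses was tested directly, as the retinoic acid change in KD1 cells minus that in scrambled cells. It was called for 4 of 6 factors, all more positive in KD1, where 4.27% of all tested genes were. Sox7 differed by 3.82 ± 0.64 (SE, adjusted p = 0.00387), Gata4 by 3.78 ± 0.26 (adjusted p = 1.86e-05), Sox17 by 3.10 ± 0.32 (adjusted p = 0.000149) and Foxa2 by 2.81 ± 0.33 (adjusted p = 0.000364). For Gata6 the difference was 0.25 ± 0.36 (adjusted p = 0.773), with a 95% confidence interval from -0.53 to 1.03, which does not reach the differences found for these 4. Hnf4a gave 0.86 ± 0.48 (adjusted p = 0.357), with an interval from -0.19 to 1.91. Gata6 was thus higher in retinoic acid KD1 cells by an amount close to its gap between KD1 and scrambled ESCs, which is given next. The calls for Gata4, Sox7, Sox17 and Foxa2 were retained in each of 24 alternative analyses, with adjusted p of at most 0.0231.

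In undifferentiated cells the endoderm factors read at most 5.88, except Gata6 in KD1. Gata6 read 6.91 and 6.95 on the KD1 ESC arrays, against 5.77 and 4.76 on the scrambled ESC arrays. The change was 1.66 ± 0.27 (SE, adjusted p = 0.0106, 3.17-fold), and 1 of 6 factors was called in a comparison in which 0.909% of all tested genes were called higher. The scrambled arrays differed by a log2 unit, and the higher of them, replicate 1, also carried gastrulation markers: Cer1 read 6.11 and 3.58 and Eomes 5.96 and 4.31 on scrambled replicates 1 and 2. The mean of 10 definitive endoderm and streak markers was 5.65 and 4.48 on these arrays, against 4.47 to 4.67 on the other ESC arrays. Their part in the Gata6 reading was not tested. Without scrambled replicate 1 the Gata6 change was 2.17. Without scrambled replicate 2 it was 1.16 (adjusted p = 0.0588), and without KD1 replicate 1 or 2 the adjusted p was 0.108 or 0.0924, so the call rests on these arrays.

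The other factors did not pass in KD1 ESCs. Gata4 read 5.88 and 5.84 on the KD1 arrays, against 5.25 and 5.36 on the scrambled arrays, and the groups were apart, as they were with KD1 above for 25.5% of all tested genes, but the change of 0.55 ± 0.19 had an adjusted p of 0.213. Sox7 (0.53, adjusted p = 0.77), Sox17 (0.20, adjusted p = 0.867), Hnf4a (0.15, adjusted p = 0.957) and Foxa2 (0.11, adjusted p = 0.955) did not pass either. The median over the factors was 0.37 where that of all tested genes was 0.00.

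In the KD2 ESCs limma called 0 of 6 factors against scrambled ESCs, where 10.0% of all tested genes were called in either direction, and 0 of 6 had an unadjusted p under 0.05. Gata6 read 5.49 and 5.36 in KD2 ESCs, against 5.77 and 4.76 in scrambled ESCs, with a change of 0.16 ± 0.27 (SE, adjusted p = 0.779). Gata4 stood at 5.19 and 5.14 in KD2 ESCs, against 5.25 and 5.36 in scrambled ESCs. The changes of the other factors were 0.56 for Sox7, 0.25 for Hnf4a, 0.20 for Sox17 and 0.03 for Foxa2, with adjusted p of 0.54 to 0.963. Set against KD1 ESCs, KD2 ESCs had less Gata6, by -1.50 ± 0.27 (SE, adjusted p = 0.0191), the single factor called, where 2.19% of all tested genes were called lower. Array weights gave an adjusted p of 1 for this difference, and a fit to these 4 arrays alone gave 0.739. It was also lost without KD1 replicate 1 (0.151) or 2 (0.127) and with retinoic acid KD1 replicates 1 and 2 only (0.0594) or 3 and 4 only (0.0573). The Gata4 difference of -0.69 ± 0.19 had an adjusted p of 0.0856, and of 0.0267 without the array labelled KD2 replicate 1. All directions for KD2 rest partly on that array.

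Across the 5 groups, retinoic acid KD1 cells had the highest mean of each factor. Retinoic acid scrambled cells came second for Gata4, Gata6, Sox17 and Foxa2, with no overlap to the next group. The share of all tested genes set apart in this order was not counted, so the separation is a description only. Between groups this small it is common: KD1 ESCs lay above scrambled ESCs without overlap for 25.5% of all tested genes. For Sox7, retinoic acid scrambled cells had a mean of 5.05, above scrambled ESCs at 4.67. They lay below KD2 ESCs at 5.23 and KD1 ESCs at 5.21, and the arrays of these ESC groups overlapped. For Hnf4a each group overlapped with the next in the order. Over the 12 arrays, which share their groups and so are not independent, Gata4, Sox17 and Foxa2 followed each other closely, with Pearson correlations of 0.992 to 0.994. Sox7 correlated with these 3 at 0.970 to 0.971, Gata6 at 0.913 to 0.921, and Hnf4a at 0.726 to 0.756.

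Of the factors outside chromosome 14, Gata6 lies on chromosome 18, Sox17 on chromosome 1, and Foxa2 and Hnf4a on chromosome 2. The medians of the tested genes of these chromosomes in retinoic acid KD1 against retinoic acid scrambled cells were 0.01, 0.09 and -0.02.

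The genes whose pattern over the 12 arrays was most like that of a factor were taken as a description. Rbp4, which encodes the retinol carrier protein secreted by visceral endoderm and liver, was among the nearest 3 for Gata4 (0.995), Sox17 (0.994) and Foxa2 (0.995). It read 8.55, 9.21, 9.15 and 8.96 on the retinoic acid KD1 arrays, against 5.71 and 5.49 on the retinoic acid scrambled arrays, and at most 5.24 on the ESC arrays. Gata4 was also close to Hs3st1, a heparan sulfate sulfotransferase gene (0.995), and Tshr, the thyrotropin receptor gene (0.994). Sox17 and Foxa2 shared Fhdc1 (0.996 and 0.994) and Ubash3b (0.994 and 0.992). The nearest to Gata6 were Pag1 (0.988), Glipr2 (0.982) and Pdgfra (0.982), the receptor gene that marks primitive endoderm, and the nearest to Sox7 were Lrrc38 (0.984), Myo5b (0.984) and Lif (0.983). Hnf4a had looser companions, the phosphate transporter gene Slc34a2 (0.900), the pancreatic colipase gene Clps (0.898) and Cnksr1 (0.897).

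Lists of endoderm products and related genes were chosen with earlier results of these data known, so their counts are descriptions only. Genes that primitive and parietal endoderm is known to express were higher along with the factors after retinoic acid. Of 14 such products, 12 were higher and 0 lower in retinoic acid KD1 than in retinoic acid scrambled cells, with a median log2 change of 2.38, where the median of all tested genes was -0.02 and 11.2% were higher. Leading members were the granule proteoglycan gene Srgn (4.34 ± 0.25), the laminin chain gene Lama1 (4.16 ± 0.27), the activin antagonist gene Fst (4.00 ± 0.23) and the type IV collagen gene Col4a1 (3.67 ± 0.22), each with an adjusted p of 1.01e-06 or less. Lama1 read 12.04, 12.32, 12.55 and 12.44 in retinoic acid KD1 cells, against 8.31 and 8.05 in retinoic acid scrambled cells. The perlecan gene Hspg2 and the plasminogen activator gene Plat did not pass. The count was 11 with retinoic acid KD1 replicates 1 and 2 only and 12 with replicates 3 and 4 only. In the difference of responses 9 of the 14 were called more positive in KD1 and 0 less, where 4.27% of all tested genes were more positive. The 9 were led by Fst (3.90 ± 0.35), Lamc1 (2.87 ± 0.44), Col4a1 (2.70 ± 0.34) and Lama1 (2.68 ± 0.41).

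In scrambled cells retinoic acid raised 8 of the 14 products, led by Plat (4.08 ± 0.28) and the endocytic adaptor gene Dab2 (4.02 ± 0.23), and 22.4% of all tested genes. In KD1 cells retinoic acid raised 13 of the 14, where 29.4% of all tested genes rose. Dab2 thus rose in scrambled cells, as Gata6 did, and its difference of responses was -0.36 ± 0.31 (adjusted p = 0.588). In KD1 ESCs 4 of the 14 were already higher than in scrambled ESCs, where 0.909% of all tested genes were called higher. They were Srgn (2.77 ± 0.29), Dab2 (2.05 ± 0.23), Lama1 (1.47 ± 0.31) and Col4a2 (0.85 ± 0.17). The count was 2 to 6 in the alternative analyses. It was 2 without scrambled ESC replicate 2, either KD1 ESC array, either retinoic acid scrambled array or retinoic acid KD1 replicate 4. In KD2 ESCs 0 of the 14 were higher and 3 were lower than in scrambled ESCs, where 7.15% of all tested genes were called lower: Serpinh1 (-1.32 ± 0.20), Lamb1 (-1.12 ± 0.21) and Plat (-1.11 ± 0.28). Without scrambled ESC replicate 2 the lower count was 1, and with array weights or the compared arrays alone it was 0. The higher count was 3 without KD2 replicate 2, which leaves the array that contradicts its label, and 1 without scrambled ESC replicate 1.

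**Figure D3:**
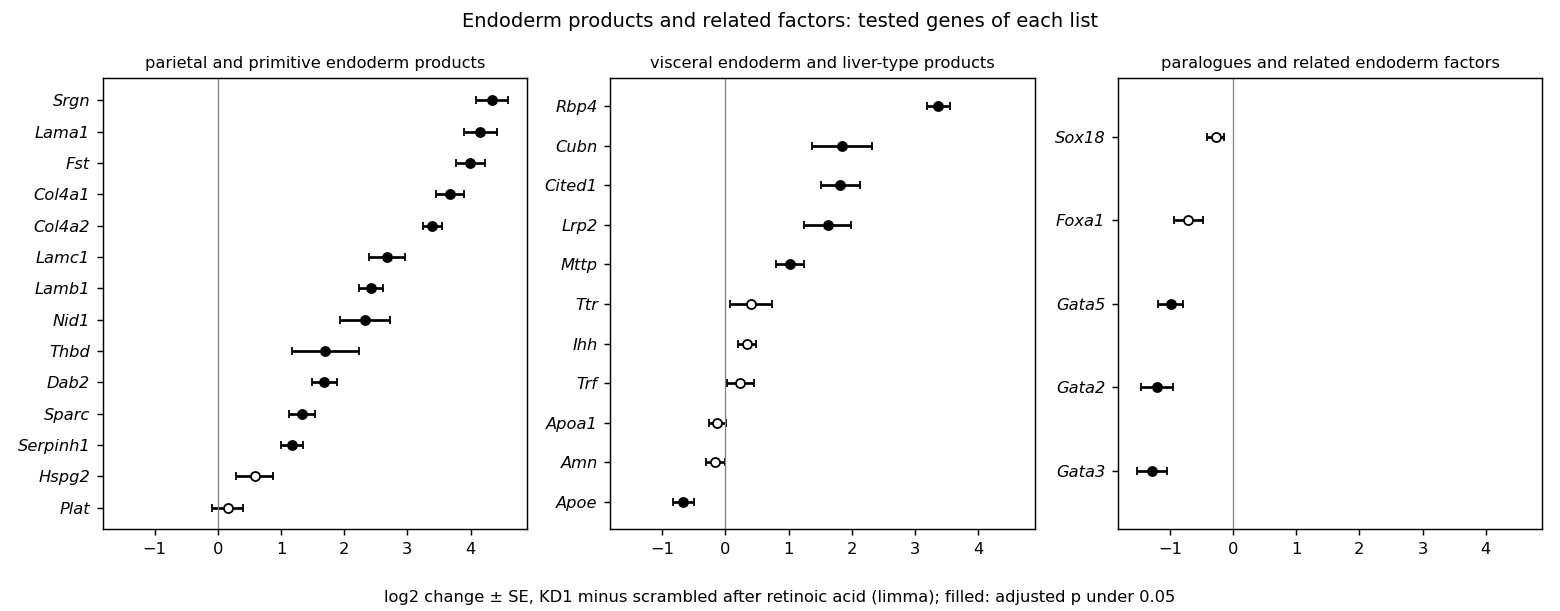
Log2 change ± SE from limma in retinoic acid KD1 against retinoic acid scrambled cells (horizontal axes) for the tested genes of 3 lists (panels), with filled points where the adjusted p is under 0.05. Of the parietal and primitive endoderm products 12 of 14 are higher, of the visceral and liver-type products 5 of 11 are higher and 1 is lower, and of the related factors 0 of 5 are higher and 3 are lower.

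Products of visceral endoderm and liver were mixed. Of 16 listed genes 11 could be tested, while Afp, Apoa4, Apob, Apom and Fgb lay below the filter. Of the 11, 5 were higher in retinoic acid KD1 than in retinoic acid scrambled cells: Rbp4 (3.37 ± 0.18, adjusted p = 3.22e-07), the uptake receptor genes Cubn (1.85 ± 0.47) and Lrp2 (1.62 ± 0.38), the transcriptional coactivator gene Cited1 (1.82 ± 0.31) and the lipid transfer protein gene Mttp (1.02 ± 0.22). Over all tested genes 11.2% were higher. Without retinoic acid scrambled replicate 2 the count was 2. Apoe was lower (-0.66 ± 0.17, adjusted p = 0.0155), a call lost without retinoic acid scrambled replicate 1 and with KD1 replicates 3 and 4 only. Afp, the classical marker of visceral endoderm, read 3.42 to 3.63 in retinoic acid KD1 cells, against 3.40 to 3.61 in retinoic acid scrambled cells. The median of the 11 was 0.40. In the difference of responses 2 were called, Rbp4 (3.27 ± 0.27) and Cited1 (1.80 ± 0.48), where 4.27% of all tested genes were more positive in KD1. Between KD1 and scrambled ESCs 0.909% of all tested genes were called higher. In KD1 ESCs, Cubn (2.92 ± 0.54) was the 1 product called higher, and 0 were without any 1 of the KD1 or scrambled ESC arrays.

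Relatives of the 6 factors were not higher in retinoic acid KD1 than in retinoic acid scrambled cells, though most rose with retinoic acid. Of 10 listed relatives, 8 were on the table under a single symbol and 5 were tested. In retinoic acid KD1 against retinoic acid scrambled cells 0 of 5 were higher and 3 were lower, the GATA family genes Gata3 (-1.28 ± 0.23, adjusted p = 0.00191), Gata2 (-1.20 ± 0.25, adjusted p = 0.00487) and Gata5 (-0.98 ± 0.20, adjusted p = 0.00378), where 11.5% of all tested genes were lower. Gata3 read 7.63, 7.37, 7.31 and 7.44 on the KD1 arrays, against 8.64 and 8.80 on the scrambled arrays. Foxa1, the closest relative of Foxa2, changed by -0.71 ± 0.24 (adjusted p = 0.0511), and Sox18, the remaining SoxF gene, did not pass. Retinoic acid raised 3 of the 5 in KD1 cells (Gata3, Gata2 and Foxa1, where 29.4% of all tested genes rose) and 4 of the 5 in scrambled cells (these and Gata5, where 22.4% rose). For Gata3 the rise was 3.13 ± 0.23 in KD1 and 4.48 ± 0.27 in scrambled cells, and the difference of -1.34 ± 0.35 had an adjusted p of 0.0393. A less positive response in KD1 was called for Gata3 and Gata5, as it was for 3.61% of all tested genes. The count was 0 of 5 with retinoic acid KD1 replicates 1 and 2 only, 1 with replicates 3 and 4 only, and 4 without both KD2 arrays.

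Regulators that act above or beside the factors went both ways. Of 11 tested, 4 were higher and 3 lower in retinoic acid KD1 than in retinoic acid scrambled cells, where 11.2% of all tested genes were higher and 11.5% lower. Pdgfra was higher by 2.47 ± 0.24 (adjusted p = 2.36e-05), with 10.82 to 11.17 in retinoic acid KD1 against 8.26 and 8.84 in retinoic acid scrambled cells. The zinc-finger genes Klf5 (1.88 ± 0.28) and Sall4 (1.46 ± 0.18), which also serve ESC self-renewal, were higher, as was the signal transducer gene Smad2 (0.83 ± 0.13). Lower were the FGF receptor genes Fgfr2 (-1.78 ± 0.26) and Fgfr1 (-1.69 ± 0.24) and the ligand gene Nodal (-1.03 ± 0.25). FGF signalling is needed for primitive endoderm in the blastocyst.

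Markers of other cells that use some of these factors were examined beside them, in the comparison in which 11.2% of all tested genes were higher and 11.5% lower. For definitive endoderm and streak 0 of 6 tested markers were higher and 1, Cxcr4 (-2.23 ± 0.34), was lower in retinoic acid KD1 than in retinoic acid scrambled cells, and the mean of the 10 listed was 4.92 to 5.06 on the KD1 arrays, against 5.16 to 5.22. Cardiac mesoderm, which also uses GATA4 and GATA6, had 0 of 7 higher and 3 lower, Actc1 (-2.22 ± 0.21), Hand2 (-1.06 ± 0.14) and Isl1 (-1.05 ± 0.21), with a mean of 4.82 to 4.96 in KD1, against 5.14 to 5.22. Endothelium, which uses SoxF factors, had 2 of 5 higher, Flt1 (3.97 ± 0.32) and Tek (0.84 ± 0.25), and 0 lower, with a mean of 4.75 to 4.92 against 4.44 to 4.51. The higher count was 1 when retinoic acid scrambled replicate 1 or 2, or retinoic acid KD1 replicate 3 or 4, was left out. Of the 4 floor plate markers tested limma called 0 in either direction, while 2, Shh and Ntn1, were lower at an unadjusted p under 0.05, and up to 2 were called lower in the alternative analyses. Fibroblast genes, which the feeder layer expresses, had 0 of 11 higher and 4 lower, Col1a2 (-1.80 ± 0.32), Col3a1 (-1.71 ± 0.33), Dcn (-1.58 ± 0.41) and Twist1 (-1.35 ± 0.23). The lower count was 2 without retinoic acid scrambled replicate 2, and 7 with array weights or the compared arrays alone. The fibroblast mean was 6.63 to 7.09 on the retinoic acid KD1 arrays, against 7.50 to 7.74 on the retinoic acid scrambled arrays, and 5.78 to 6.56 in KD1 ESCs, against 6.82 to 6.84 in scrambled ESCs. Of 9 ESC genes 3 were higher, Klf4 (3.14 ± 0.32), Dppa5a (0.88 ± 0.22) and Pou5f1 (0.85 ± 0.21), and 1 lower, Sox2 (-1.75 ± 0.39). Without retinoic acid scrambled replicate 1 these counts were 1 and 0, and without retinoic acid KD1 replicate 3 the lower count was 3. The ESC mean was 6.13 to 7.23 on the KD1 arrays, against 6.53 and 6.63. The part of these other cells in the changes of the factors was not tested.

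**Figure D4:**
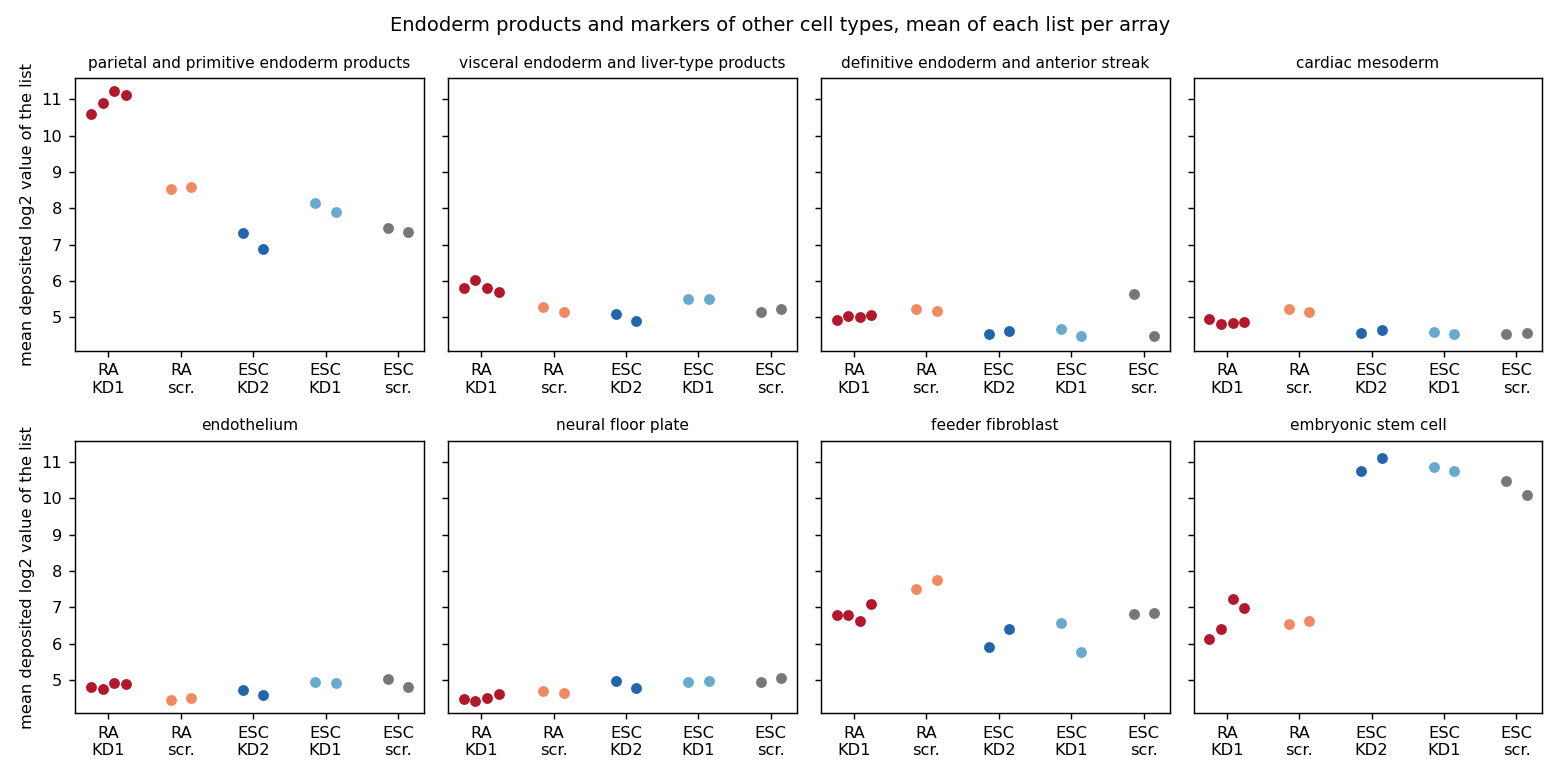
Mean deposited log2 value (vertical axes) of the listed genes of 8 lists (panels) on each of 12 arrays in 5 groups (horizontal axes), 1 point per array. The parietal and primitive endoderm mean is 10.61 to 11.24 on the retinoic acid (RA) KD1 arrays, against 8.53 and 8.59 on the retinoic acid scrambled (scr.) arrays, while the definitive endoderm and cardiac means are lower on the KD1 arrays.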

How the data were processed

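RNA from 12 samples in 5 groups was measured on 1 array each. The authors deposited log2 values per probe set, made with RMA per the submitters' processing notes. The sources used here do not give its version or settings. No further scaling was applied, and array medians ran from 4.73 to 5.09. The gene of a probe set came from the platform annotation, only where 1 symbol was listed (21789 of 35556 probe sets), and the probe set with the highest mean stood for a gene. A gene was tested when above percentile 40 of the named genes of an array on at least 2 arrays.

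With limma 3.58.1 (R 4.3.3) 1 model of group means took in the 12 arrays (7 residual and 4.58 prior degrees of freedom), with 7 contrasts, two-sided. Lists are described by counts and medians. The members and lists were chosen with earlier results of these data known. The genes named are the 6 factors, Smarcd1, up to 4 members of a list with the largest called change, and the 3 genes most correlated with each factor over 12 arrays. Of the visceral list all 6 called genes are named, and other members named, Cer1, Eomes, Afp, Shh and Ntn1 among them, were chosen after their values were seen. Alternatives covered the filter, median centring, cyclic loess, array weights, a variance trend, the arrays fitted, several probe sets, a replicate block, subsets of retinoic acid KD1 and leaving out each array. Precision is limited by the number of arrays. The fit was tested on simulated data. Python 3.11.15, pandas 2.3.3, numpy 2.4.6 and matplotlib 3.10.9 were used.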

Additional observations from a re-analysis of the deposited data

Results flagged for a closer look

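The response to retinoic acid differed between KD1 and scrambled cells for 4 of the 6 endoderm factors, by the test of the difference itself (limma, adjusted p under 0.05). Of all tested genes, 4.27% were called more positive in KD1 and 3.61% less positive. The factors were chosen with earlier results of these data known. The difference, as the change in KD1 minus the change in scrambled cells, was 3.82 for Sox7, 3.78 for Gata4, 3.10 for Sox17 and 2.81 for Foxa2 on the log2 scale. In the 6 sets of 4 retinoic acid KD1 readings, 1 for each factor, no array stood apart by Dixon's criterion, although Hnf4a replicate 2 was the highest reading of its set.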

How the results depend on the processing

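Over the factors, comparisons and alternatives, 936 values kept direction and side of the threshold, 30 lost and 8 gained the call, and 15 changed sign. The count of factors called was 5 to 6 for retinoic acid KD1 against scrambled and for retinoic acid in KD1. In both, Hnf4a was the factor that crossed the threshold. The count stayed at 4 for the difference of responses and at 0 for KD2 against scrambled ESCs. For KD1 against scrambled ESCs the count of 1 was 0 with the compared arrays alone and with the replicate block (Gata6 adjusted p = 0.0591 and 0.0729), and 0 to 1 leaving out an array. For KD2 against KD1 the count of 1 was 0 with array weights, with the compared arrays alone, with the replicate block and with retinoic acid KD1 replicates 1 and 2 only or 3 and 4 only, and 0 to 2 leaving out an array. For retinoic acid in scrambled cells the count of 4 was 2 to 4 leaving out an array. With the replicate block Hnf4a (1.12, adjusted p = 0.122) and, for retinoic acid in scrambled cells, Foxa2 (adjusted p = 0.0686) lost their calls. The deviations of replicate 1 from replicate 2 correlated at -0.183 to 0.243 between groups, highest between scrambled and KD1 ESCs. The labels do not say whether equal replicate numbers pair the arrays, and these correlations cannot decide it. Hnf4a passed for retinoic acid in KD1 in 7 alternatives, among them without both KD2 arrays (adjusted p = 0.0474).

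Signs changed only for uncalled values, when 1 array was left out, and ranges over arrays left out follow. For KD1 against scrambled ESCs, Foxa2 was -0.14 to 0.36 (negative without scrambled replicate 2, and -0.094 without KD1 replicate 2) and Hnf4a -0.014 to 0.31 (without KD1 replicate 1). For KD2 against scrambled ESCs, Gata6 was -0.35 to 0.66 and Foxa2 -0.22 to 0.28 (without scrambled replicate 2), and Sox17 -0.033 to 0.43 (without KD2 replicate 1). For KD2 against KD1, Sox7 was -0.022 to 0.067 (without KD1 replicate 1, and -0.021 without KD2 replicate 2), Sox17 -0.23 to 0.23 (without KD2 replicate 1, and -0.033 without KD1 replicate 2), Foxa2 -0.28 to 0.12 and Hnf4a -0.060 to 0.26 (positive and negative without KD1 replicate 2). For retinoic acid in scrambled cells, Hnf4a was -0.21 to 0.079 (positive without ESC replicate 1, and 0.026 without retinoic acid replicate 1). The difference of responses for Gata6 was -0.25 to 0.76 (negative without scrambled ESC replicate 1). The cause was not tested. Hnf4a was not tested at percentile 60, where it was below the filter.

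Over all genes, called counts moved with the setting: KD1 against scrambled ESCs 301 (26 to 1148), KD2 against scrambled ESCs 1302 (0 to 4463), KD2 against KD1 351 (0 to 4550), retinoic acid KD1 against scrambled 2942 (1526 to 4988), retinoic acid in scrambled 5079 (3341 to 7074), retinoic acid in KD1 6596 (4416 to 8611) and the difference 1024 (447 to 2548).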

Other observations

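The 4 retinoic acid KD1 arrays differed among themselves in a way that crosses the endoderm genes, and the patterns given here were chosen after the values were seen. Replicate 2 had the highest Hnf4a reading (6.43, against 4.91 to 5.46 on the others). On that array Slc34a2 read 6.53 (4.36 to 4.90 on the others), Ttr, the thyroxine carrier gene of visceral endoderm and liver, read 5.68 (4.12 to 4.66) and Cubn read 9.47 (7.60 to 8.77). Replicates 3 and 4 had the higher Sox7 readings (10.32 and 10.01, against 8.58 and 8.69 on replicates 1 and 2). On these arrays Lrrc38 read 6.39 and 5.99, against 4.97 and 5.36, and Cubn read 7.80 and 7.60, against 8.77 and 9.47. These differences within 1 group were not tested.

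Klf4, which serves ESC self-renewal, read 8.15 to 8.70 on the retinoic acid KD1 arrays, against 5.47 and 5.35 on the retinoic acid scrambled arrays. It was also called higher in undifferentiated cells. There it read 9.08 to 9.31 in KD1 and 8.95 to 9.63 in KD2 ESCs, against 6.88 to 8.24 in scrambled ESCs. Its difference of responses was not called. Flt1, a VEGF receptor gene, read 9.38 to 9.98 on the retinoic acid KD1 arrays, against 5.87 and 5.48 on the retinoic acid scrambled arrays.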
